A study of Homo sapiens with 24 samples.

Results

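SET2 cells kept in the JAK inhibitor CYT387 were compared with SET2 cells kept in the JAK inhibitor SAR302503. The comparison holds 6 of the 24 libraries of the series, 3 of the CYT387 persistent line and 3 of the SAR302503 persistent line. They were chosen by their labels. SET2 is an established human megakaryoblastic cell line that depends on an activated JAK2. Both persistent lines were grown with their inhibitor always in the medium (RPMI1640 with 20% FCS), and untreated naive SET2 cells, 3 libraries, serve as a point of reference. The sources used here give no concentration and no length of exposure for either line, so the comparison is of these 2 lines and not of the 2 compounds at a matched dose. Nothing says whether the 3 libraries of a line came from separate cultures, so the p-values measure the spread between libraries, which may be technical.

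JAK2 is the kinase that the thrombopoietin and erythropoietin receptors use to phosphorylate STAT5 and STAT3, and its output also feeds the MAPK and PI3K pathways. CYT387 is momelotinib and SAR302503 is fedratinib. Both are anilinopyrimidines that occupy the ATP site of the active kinase (type I inhibitors). Momelotinib carries a benzamide and also inhibits the BMP receptor kinase ACVR1, while fedratinib carries a benzenesulfonamide joined through an amine. Cells that grow in a type I inhibitor without a resistance mutation are called persistent.

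The libraries were first checked for RNA of other cells. CYT387 library 2 held squamous epithelium markers at 0.635% of its reads, against 0.00434% and 0.00153% in CYT387 libraries 1 and 3. SAR302503 library 3 held them at 0.123%, against 0.00986% and 0.024% in SAR302503 libraries 1 and 2, and naive libraries at 0.0019% to 0.00475%. CYT387 library 2 also held stroma and vessel markers at 0.947% of reads, against 0.124% and 0.128% in the other CYT387 libraries, and 9 of the 10 SET2 markers found in the table with a read, at 0.312% of reads in sum against 0.714% and 0.712%. SET2 markers were clear in all other libraries of both lines (0.456% to 0.586% of reads in SAR302503 libraries), except that PF4 had at most 5.92 normalised counts. Library depth was 21770721 to 26795533 reads in the CYT387 line and 23108234 to 33824160 reads in the SAR302503 line. In bulk RNA of this kind, fewer cells of a type and less RNA per cell cannot be told apart.

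**Figure D1:**
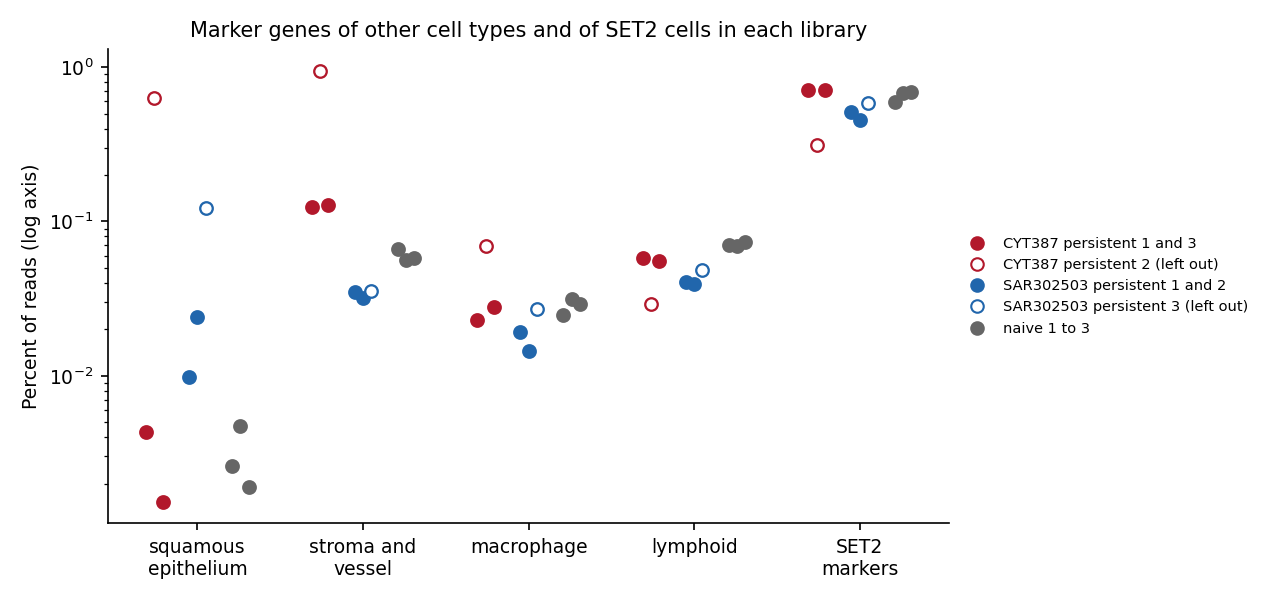
Each point is 1 library, and the y axis (log) is the percent of its reads on the markers of a cell type. CYT387 library 2 lies at 0.635% for squamous and 0.947% for stroma and vessel markers, and SAR302503 library 3 at 0.123% for squamous markers, above the other libraries of their lines.

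The comparison therefore rests on CYT387 libraries 1 and 3 and SAR302503 libraries 1 and 2. A limma fit over 22 libraries of all 8 groups, on log2(normalised count + 1), gave each difference as CYT387 minus SAR302503, and a gene was called at an adjusted p under 0.05. Besides the 2 lines and naive cells, the groups were the persistent lines kept in the inhibitors BMS911543 and INC424. The rest were naive cells given DMSO (no inhibitor) for 4 h, INC424 for 4 h or INC424 for 48 h. All groups share 1 estimate of the spread. A called gene was "held" where a fit on all 24 libraries called it with the same sign and the 4 libraries did not overlap between the lines. Values of a line are given below in the order of libraries 1, 2 and 3, so that the middle CYT387 value and the last SAR302503 value are those of the left-out libraries. Of 20528 genes tested, 3913 were higher (19.1%) and 3632 lower (17.7%) in the CYT387 line, 36.8% in all. Of these 22-library calls, 2292 higher (11.2%) and 2133 lower (10.4%) genes were held, 21.6% in all. Without SAR302503 library 2, limma called 2368 lower genes. Because CYT387 library 2 holds less SET2 RNA, a modest gain of a SET2 gene in the CYT387 line can lose its call in the 24-library fit. The counts called with 22 libraries and the counts held are given for each list.

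The numbers of held genes were similar in both directions, but the sizes were not. Over 2-fold, 1629 genes were higher and 407 lower in the CYT387 line. Over 8-fold, 502 were higher and 38 lower, and over 32-fold 127 were higher and 0 lower. Without the condition that a gene be held, 592 were higher and 103 lower over 8-fold, and 129 and 4 over 32-fold. Without the 117 held genes that were over 8 times higher in a left-out library, 461 genes were higher and 36 lower at over 8-fold. The median log2 difference over all genes tested was 0.06.

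**Figure D2:**
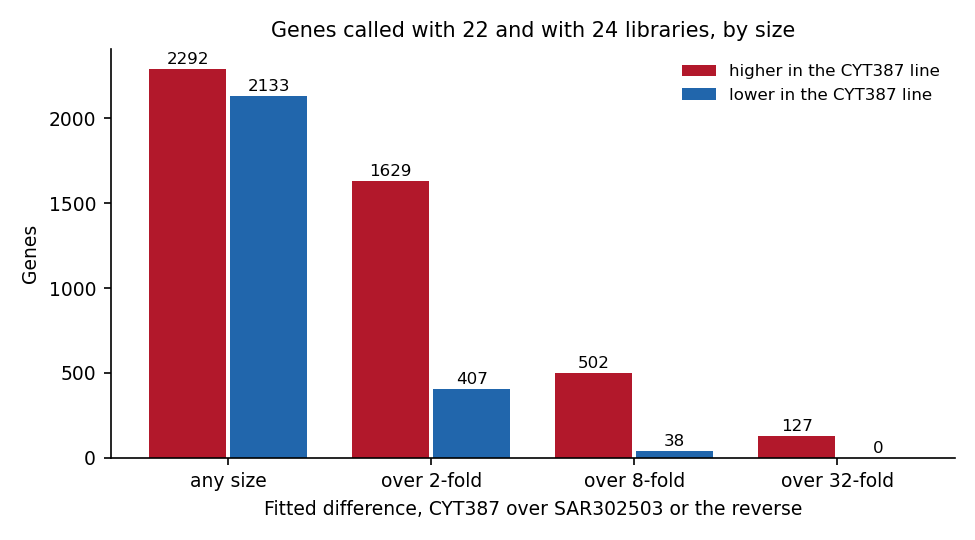
Bars count held genes that were higher (left of each pair) or lower (right) in the CYT387 line, by the size of the fitted difference. The counts are 2292 and 2133 at any size, and 502 and 38 over 8-fold.

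Among the 41 gene lists examined, MHC class II had the largest share of held genes and the largest median difference. Class II molecules present peptides to CD4+ T cells. Their genes share a promoter module of an X box, bound by the RFX complex, and a Y box, bound by NF-Y. CIITA, the coactivator that docks on this module, sets whether the genes are on. Of 13 members tested (CIITA, CD74 and 11 HLA genes), 12 were higher and held, and 0 were lower. The median log2 difference was 5.44, also with the genes at 0 reads in the SAR302503 line set to their bound. Promoter windows (250 bases before to 50 bases after the gene start, from RefSeq, build GRCh38.p14) were at hand for 11 of the 13 genes. Both strands were searched for the X box consensus, which occurs in 0.535% of 35116 human promoter windows, and for the Y box letters CTGATTGG, which occur in 3.97%. The 2 motifs do not overlap in any window printed here. The X box was found in 5 of the 11 genes and the Y box in 4 of these 5. The 5 windows are printed below, 5′ to 3′ on the gene's strand, to show the module that these genes have in common, with the matches in capitals. They lie at chr6:32589799-32590098, minus strand (HLA-DRB1), chr6:32530238-32530537, minus strand (HLA-DRB5), chr6:32666608-32666907, minus strand (HLA-DQB1), chr6:32953048-32953347, minus strand (HLA-DMA) and chr6:32940979-32941278, minus strand (HLA-DMB).
HLA-DRB1: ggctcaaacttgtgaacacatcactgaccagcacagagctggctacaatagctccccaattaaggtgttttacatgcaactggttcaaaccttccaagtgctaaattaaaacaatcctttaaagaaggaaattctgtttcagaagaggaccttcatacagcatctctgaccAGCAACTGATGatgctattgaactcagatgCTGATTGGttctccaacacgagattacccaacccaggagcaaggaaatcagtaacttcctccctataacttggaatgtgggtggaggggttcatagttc
HLA-DRB5: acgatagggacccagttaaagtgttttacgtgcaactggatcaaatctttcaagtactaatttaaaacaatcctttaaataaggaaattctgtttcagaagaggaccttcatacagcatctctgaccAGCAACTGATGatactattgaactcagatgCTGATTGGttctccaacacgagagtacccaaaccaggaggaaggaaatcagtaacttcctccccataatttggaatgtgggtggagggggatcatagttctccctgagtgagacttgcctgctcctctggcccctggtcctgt
HLA-DQB1: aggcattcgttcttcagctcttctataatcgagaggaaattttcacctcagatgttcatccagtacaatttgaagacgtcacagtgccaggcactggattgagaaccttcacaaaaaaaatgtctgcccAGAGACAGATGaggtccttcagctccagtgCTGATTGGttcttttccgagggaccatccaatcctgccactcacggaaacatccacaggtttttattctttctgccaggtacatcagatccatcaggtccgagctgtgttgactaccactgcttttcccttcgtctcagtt
HLA-DMA: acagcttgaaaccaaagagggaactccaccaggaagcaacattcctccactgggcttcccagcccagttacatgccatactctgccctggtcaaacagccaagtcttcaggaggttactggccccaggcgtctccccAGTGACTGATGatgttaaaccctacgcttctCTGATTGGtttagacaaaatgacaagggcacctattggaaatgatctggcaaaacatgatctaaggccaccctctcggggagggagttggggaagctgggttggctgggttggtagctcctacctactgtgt
HLA-DMB: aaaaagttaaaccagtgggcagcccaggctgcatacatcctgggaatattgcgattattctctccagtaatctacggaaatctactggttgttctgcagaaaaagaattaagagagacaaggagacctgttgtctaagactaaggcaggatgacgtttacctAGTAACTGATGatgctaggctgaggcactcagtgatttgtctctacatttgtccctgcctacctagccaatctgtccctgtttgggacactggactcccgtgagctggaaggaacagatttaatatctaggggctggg
From the start of the X box to the start of the Y box there were 30 bases in HLA-DRB1, HLA-DRB5 and HLA-DQB1 and 31 bases in HLA-DMA. HLA-DOB, the member that was not called, held neither motif in its window, and neither did 5 of the called members with a window.

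CIITA had 1886, 1486 and 2014 normalised counts in the CYT387 line, against 38, 50.8 and 51.1 in the SAR302503 line. Naive cells had 568, 686 and 699, so that the 2 lines lie on either side of naive cells without overlap. The log2 difference was 5.44 ± 0.20 (SE, limma adjusted p = 1.15e-15). HLA-DRA, the alpha chain of the DR molecule, had 10358, 13470 and 9283 in the CYT387 line, against 151, 116 and 165 in the SAR302503 line and 2699, 2186 and 2073 in naive cells. Its log2 difference was 6.20 ± 0.16 (limma adjusted p = 1.59e-18). HLA-DRB1, the partner of HLA-DRA, had 8339, 6724 and 8329 in the CYT387 line, against 74.8, 63.5 and 122 in the SAR302503 line. HLA-DRB5, a second DR beta chain whose reads can be shared with HLA-DRB1, had 2189, 2480 and 1878 against 3.45, 10.2 and 20.3 in the SAR302503 line. The left-out libraries lay with the other libraries of their line for each of these genes.

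The peptide-binding chains of the DP and DQ molecules and the loading factors moved the same way. HLA-DPB1 had 1473, 4675 and 1550 in the CYT387 line, against 25.3, 21.6 and 52.8 in the SAR302503 line. HLA-DQA1 had 536, 1327 and 506 in the CYT387 line, against 2.30, 7.62 and 1.76 in the SAR302503 line. HLA-DMB, a subunit of the peptide exchange factor HLA-DM, had 104, 573 and 113 in the CYT387 line, against 0, 0 and 21.1 in the SAR302503 line, at least 60.0-fold higher against 3 reads over SAR302503 libraries 1 and 2. Its partner HLA-DMA differed less, with 2131, 2817 and 1873 in the CYT387 line, against 615, 658 and 740 in the SAR302503 line (log2 1.65 ± 0.12, limma adjusted p = 1.91e-10). CD74, the invariant chain that guides class II molecules, had 16058, 41758 and 14700 in the CYT387 line, against 1170, 971 and 1491 in the SAR302503 line and 7565 to 7687 in naive cells. HLA-DOA was at least 16.1-fold higher in the CYT387 line, while HLA-DOB had 178, 149 and 172 in the CYT387 line, against 254, 206 and 137 in the SAR302503 line. The interval of the HLA-DOB log2 difference ran from -0.92 to 0.15 (95%), with an adjusted p of 0.259. Macrophages also express class II genes. Of their 13 markers in the table, CD163 was at 0 in the 4 libraries compared, all markers together summed to 0.0229% and 0.028% of reads in CYT387 libraries 1 and 3, against 0.0191% and 0.0145% in SAR302503 libraries 1 and 2 and 0.0249% to 0.0316% in naive libraries, and C1QA alone was held (49.7, 4251 and 48.9 against 0, 0 and 0 in the SAR302503 line). In CYT387 library 1 the macrophage sum was 6650 normalised counts, of which APOE held 4485, AIF1 1121 and TYROBP 752. The part of macrophages in the class II values was not tested.

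The factors that bind the class II module did not follow CIITA. Of 7 tested, 1 was called higher and 3 lower with 22 libraries, and the held ones were NFYB and CREB1, both lower. NFYB, a subunit of NF-Y, had 526, 588 and 648 in the CYT387 line, against 897, 1136 and 683 in the SAR302503 line (log2 -0.79 ± 0.19, limma adjusted p = 0.00275). Without SAR302503 library 2 the calls of NFYB, CREB1 and the class I gene B2M were lost (limma adjusted p = 0.0598, 0.193 and 0.0512), and CREB1 also lost its call without CYT387 library 1 or 3 (0.0843 and 0.0524). Of 17 MHC class I and peptide-loading genes, 5 were called higher and 3 lower, and 2 of each direction were held. TAP1, a subunit of the peptide transporter for class I, had 5400, 4147 and 5028 in the CYT387 line, against 8052, 7055 and 9473 in the SAR302503 line, and B2M, the light chain of class I, had 61945, 46266 and 54262 against 74757, 91212 and 75650 in the SAR302503 line. The higher ones were the loading factors TAPBP and TAPBPL (log2 0.53 and 0.84), and TAPBP lost its call without CYT387 library 3 (limma adjusted p = 0.0567).

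**Figure D3:**
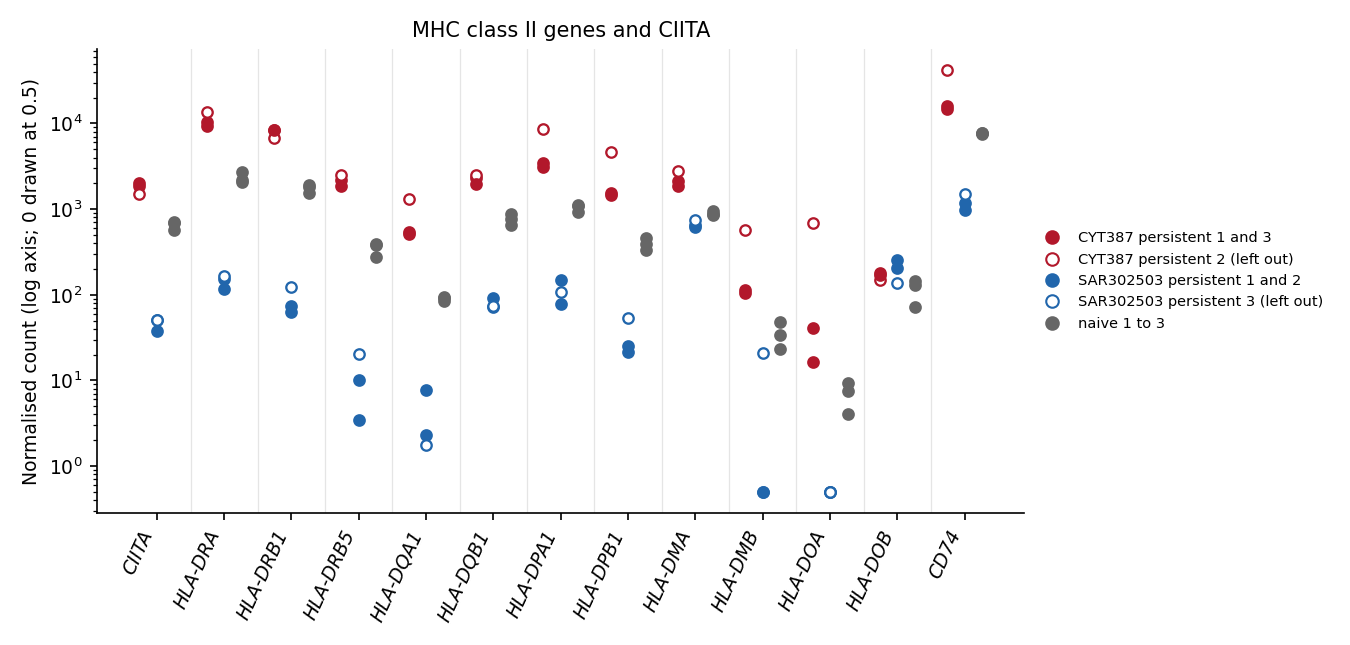
Each point is 1 library, the y axis (log) is the normalised count, and hollow points are the left-out libraries. For CIITA the 3 CYT387 libraries lie at 1486 to 2014 and the 3 SAR302503 libraries at 38 to 51.1, and the lines overlap only for HLA-DOB.

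The targets of the inhibitors and the STATs were examined next. Of 11 JAK and STAT genes, 3 were called higher and 5 lower, of which 2 and 5 were held, with a median log2 difference of 0.04. JAK2 had 2882, 1266 and 3015 in the CYT387 line, against 4332, 5205 and 2872 in the SAR302503 line (log2 -0.69 ± 0.11, limma adjusted p = 3.06e-05). The left-out SAR302503 library 3 lay below CYT387 libraries 1 and 3 for JAK2. JAK1 had 6137, 5161 and 5787 in the CYT387 line, against 7854, 8943 and 7052 in the SAR302503 line. STAT3 was lower by a small amount (log2 -0.24 ± 0.09, limma adjusted p = 0.0393), and STAT2 as well (log2 -0.50 ± 0.12). STAT4, of which few reads were found, and STAT6 were higher. JAK3 (95% interval of the log2 difference -0.34 to 0.42), STAT5A (-0.12 to 0.30) and STAT5B (-0.02 to 0.32) were not called. STAT5A, the main STAT downstream of JAK2 in this lineage, had 22104, 7283 and 21698 in the CYT387 line, against 22459, 18880 and 22841 in the SAR302503 line. TYK2 was called higher with 22 libraries (log2 0.46 ± 0.17) but not with 24. Calls of these small differences were lost in fits that left 1 library in a line. The STAT3 log2 difference was -0.28 without CYT387 library 1 and -0.20 without CYT387 library 3. Without SAR302503 library 1 or 2 it was -0.24. STAT3 lost its call without any 1 of the 4 libraries (limma adjusted p from 0.0694 to 0.202), STAT6 without CYT387 library 1 or 3 or SAR302503 library 2 (0.0715 to 0.261), TYK2 without the same libraries (0.108 to 0.372), and STAT4 without CYT387 library 3 (0.107) or SAR302503 library 1 (0.402).

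Of 15 targets of JAK-STAT signalling, 9 were called higher and 0 lower with 22 libraries, and 4 higher genes were held (OSM, IL2RA, CDKN1A and SOCS2). IL2RA, the alpha chain of the interleukin 2 receptor and a STAT5 target, had 217, 191 and 262 in the CYT387 line, against 64.5, 73.7 and 39.6 in the SAR302503 line, both far under the 1186 to 1309 of naive cells. Naive cells given DMSO for 4 h averaged 218 of IL2RA, inside the range of the CYT387 line. OSM, a cytokine of the interleukin 6 family, had 112, 71.1 and 80.8 in the CYT387 line, against 25.3, 26.7 and 63.4 in the SAR302503 line. SOCS2, a feedback inhibitor, differed by only 0.36 ± 0.13 on the log2 scale, and lost its call without CYT387 library 1 or 3 or SAR302503 library 1 (limma adjusted p = 0.102, 0.114 and 0.196). MYC, a target shared with many pathways, had 29070, 13886 and 28565 in the CYT387 line, against 24863, 23419 and 31819 in the SAR302503 line, and was not called (limma adjusted p = 0.0838).

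Of 31 cytokine and growth factor receptors tested, 16 were called higher and 3 lower in the CYT387 line, of which 12 and 2 were held, with a median log2 difference of 0.75. IL9R, which signals through JAK1 and JAK3, had 579, 165 and 1061 in the CYT387 line, against 65.6, 39.4 and 80.1 in the SAR302503 line and 186 to 277 in naive cells (log2 3.92 ± 0.25, limma adjusted p = 2.80e-11). CSF2RB, the shared beta chain of the interleukin 3, interleukin 5 and GM-CSF receptors, had 23384, 11064 and 21858 in the CYT387 line, against 8794, 7690 and 10412 in the SAR302503 line and 32509 to 46014 in naive cells. IL4R had 8762, 4405 and 8152 in the CYT387 line, against 2856, 2314 and 3155 in the SAR302503 line. KIT, the receptor of stem cell factor, had 10977, 3795 and 10085 in the CYT387 line, against 4611, 5425 and 3137 in the SAR302503 line and 21612 to 24656 in naive cells (log2 1.07 ± 0.10, limma adjusted p = 2.55e-08). The CYT387 library 2 value of KIT lay inside the range of the SAR302503 line, and with that library kept the call was lost (limma adjusted p = 0.097). EPOR, the erythropoietin receptor, went the other way, with 973, 437 and 1027 in the CYT387 line, against 1422, 1452 and 2304 in the SAR302503 line, and lost its call without any 1 of the 4 libraries (limma adjusted p from 0.0584 to 0.0999).

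Brakes on JAK2 and on receptors split. Of 15 tested, 5 were called higher and 7 lower, of which 3 and 4 were held. The number called higher was 1 without CYT387 library 1, 2 without SAR302503 library 1, and 3 without CYT387 library 3 or SAR302503 library 2, and the number called lower was 4 without SAR302503 library 2. CBL, a ubiquitin ligase that removes activated receptors, had 2012, 1819 and 1901 in the CYT387 line, against 3312, 3521 and 2562 in the SAR302503 line (log2 -0.80 ± 0.09, limma adjusted p = 4.95e-07), while its relative CBLB was higher in the CYT387 line (log2 0.55 ± 0.15). CBLB lost its call without CYT387 library 1 or SAR302503 library 1 (limma adjusted p = 0.0608 and 0.145). The phosphatases PTPN1, PTPN11 and PTPRC were lower in the CYT387 line, with log2 differences of -0.53, -0.53 and -0.65. PTPRC had 8696, 3213 and 8442 in the CYT387 line, against 12620, 14274 and 7558 in the SAR302503 line, so that SAR302503 library 3 lay below CYT387 libraries 1 and 3. With SAR302503 library 3 kept, the call of PTPRC was lost (limma adjusted p = 0.101).

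Immediate early genes, which are switched on within minutes of growth factor signalling without new protein synthesis, were higher in the CYT387 line. Of 16 tested, 12 were called higher and 0 lower, of which 11 were held, with a median log2 difference of 1.65. EGR1, a zinc finger factor induced through ERK, is shown because serum response elements, the binding sites of SRF, are the known route by which it is induced. Both strands of the windows were searched for the core of that element (the CArG box), which occurs in 1.29% of promoter windows. Of the 14 immediate early genes with a window, EGR1 and EGR2 held it. Elements outside the promoter windows, or with letters that differ from this core, were not searched for. The other immediate early genes may therefore still have a serum response element. The EGR1 window, with 2 matches, lies at chr5:138465229-138465528, plus strand of GRCh38.p14 (RefSeq), with the matches in capitals.
EGR1: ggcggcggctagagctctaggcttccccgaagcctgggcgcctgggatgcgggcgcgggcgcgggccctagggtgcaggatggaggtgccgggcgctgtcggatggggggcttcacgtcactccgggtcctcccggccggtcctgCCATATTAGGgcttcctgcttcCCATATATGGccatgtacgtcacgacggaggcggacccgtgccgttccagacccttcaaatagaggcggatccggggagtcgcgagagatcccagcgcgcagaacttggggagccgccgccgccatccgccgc
EGR1 had 12698, 9650 and 12421 in the CYT387 line, against 2234, 2267 and 2446 in the SAR302503 line and 7169 to 7881 in naive cells. Naive cells given DMSO for 4 h averaged 991, below both lines. The lines did not overlap, and the log2 difference was 2.48 ± 0.24 (limma adjusted p = 3.51e-08). EGR3 had 424, 222 and 397 in the CYT387 line, against 42.6, 3.81 and 7.93 in the SAR302503 line, and EGR2 had 356, 236 and 387 against 21.9, 34.3 and 18.5 in the SAR302503 line. FOS, a subunit of AP-1, had 1294, 10117 and 1270 in the CYT387 line, against 234, 173 and 226 in the SAR302503 line and 72.2 to 87.9 in naive cells. FOSB (365, 2671 and 340 against 12.7, 52.1 and 11.4 in the SAR302503 line) and JUN (90.0, 6605 and 136 against 16.1, 24.1 and 69.6 in the SAR302503 line) were also far above the rest in CYT387 library 2. JUNB had 6792, 5520 and 8269 in the CYT387 line, against 2438, 2623 and 4695 in the SAR302503 line. Each of these differences was called from CYT387 libraries 1 and 3, without library 2.

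The MAPK output list as a whole moved little, with 4 of 18 called higher, 0 lower and 2 held. Without CYT387 library 3, 2 were called higher. The held ones were the phosphatases of the ERK pathway DUSP5 (223, 241 and 177 in the CYT387 line, against 66.8, 31.8 and 29.1 in the SAR302503 line) and DUSP6 (515, 1943 and 521 in the CYT387 line, against 153, 194 and 166 in the SAR302503 line). DUSP6 lay at 718 to 816 in naive cells, above both lines outside CYT387 library 2. In naive cells given DMSO for 4 h it averaged 116, below both lines, so its order depends on the control.

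Of 18 genes of the NF-kB pathway, 11 were called higher and 3 lower, of which 9 and 2 were held, with a median log2 difference of 0.70. TNFAIP3, a feedback inhibitor of NF-kB, had 617, 1792 and 556 in the CYT387 line, against 80.6, 112 and 124 in the SAR302503 line and 108 to 151 in naive cells (log2 2.61 ± 0.20, limma adjusted p = 5.46e-10). BIRC3, an inhibitor of apoptosis, had 688, 2154 and 712 in the CYT387 line, against 136, 210 and 73.1 in the SAR302503 line. IL8, a neutrophil chemokine, had 179, 163 and 173 in the CYT387 line, against 6.91, 54.6 and 8.81 in the SAR302503 line. The subunit RELB and the adaptor TRAF1 were higher by 0.76 and 1.34 on the log2 scale, and RELB lost its call without SAR302503 library 1 (limma adjusted p = 0.054).

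BMP signalling was examined because momelotinib inhibits ACVR1. ACVR1 itself had 1049, 666 and 1010 in the CYT387 line, against 930, 926 and 908 in the SAR302503 line, and was not called (95% interval of the log2 difference -0.10 to 0.40). ID1, a direct BMP target, had 1006, 2048 and 1241 in the CYT387 line, against 1182, 947 and 1850 in the SAR302503 line and was not called either (-0.48 to 0.64), although both lines were above the 322 to 478 of naive cells. Of 13 BMP and SMAD targets, 4 were called higher and 1 lower, and 3 higher ones were held. These shares were close to those over all genes tested, of which 36.8% were called and 21.6% held. SMAD6, the inhibitory SMAD induced by BMP, had 609, 441 and 664 in the CYT387 line, against 214, 250 and 296 in the SAR302503 line (log2 1.45 ± 0.20, limma adjusted p = 4.63e-06), and ID2 had 1815, 1959 and 1744 against 648, 811 and 695 in the SAR302503 line. Naive cells had 103 to 182 of SMAD6 and 3223 to 4392 of ID2, so that ID2 was below naive cells in both lines. Of 15 receptors and SMADs, 3 were called higher and 4 lower, with a median log2 difference of -0.23. The 3 higher ones were held and none of the lower ones. Without CYT387 library 1 the list had 1 called higher and 1 lower, and without CYT387 library 3 it had 1 and 0. Among the held was ENG, a coreceptor of the TGF-beta family (4238, 7787 and 4192 in the CYT387 line, against 1867, 1748 and 2523 in the SAR302503 line). Of 27 interferon response genes tested, 9 were called higher and 5 lower, of which 6 and 1 were held, with OAS3 higher (log2 0.69 ± 0.11) and RSAD2 lower (log2 -0.68 ± 0.14).

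**Figure D4:**
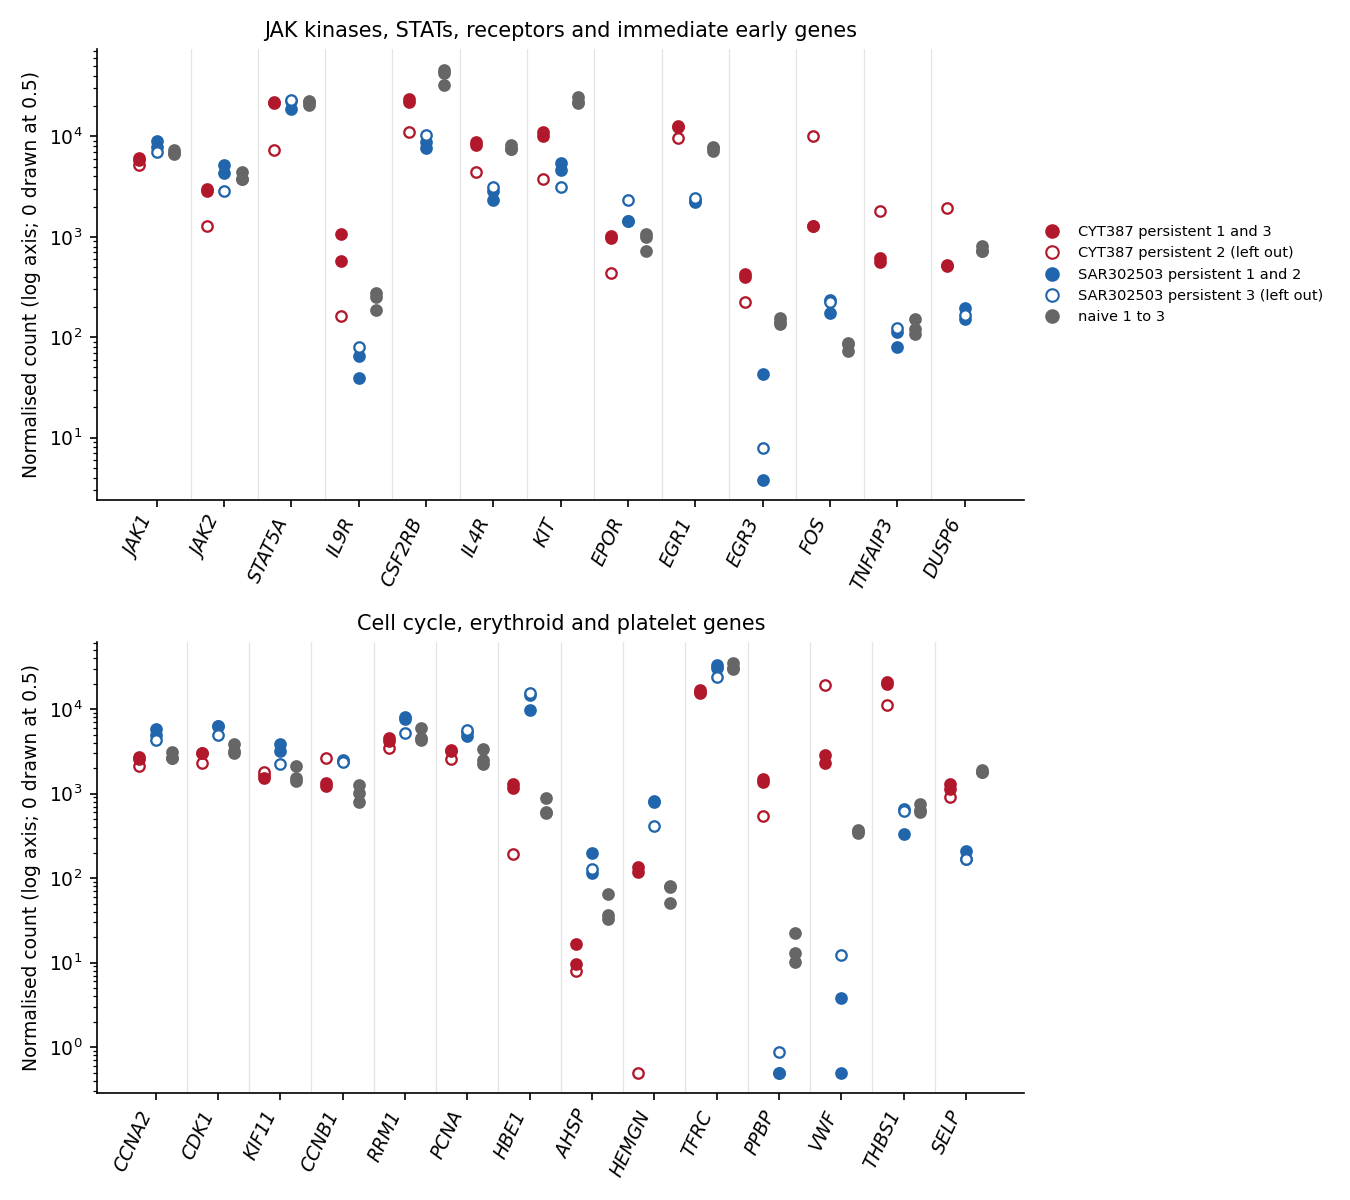
Each point is 1 library and the y axis (log) is the normalised count. In the upper panel EGR1 lies at 9650 to 12698 in the CYT387 line and 2234 to 2446 in the SAR302503 line, and in the lower panel HBE1 lies at 194 to 1310 in the CYT387 line and 9722 to 15432 in the SAR302503 line.

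Cell cycle genes were lower in the CYT387 line, by amounts under or near 2-fold. Of 24 genes of G2 and M phase, 19 were called lower and 1 higher, of which 17 and 0 were held, with a median log2 difference of -0.68. Of 26 genes of S phase, 16 were called lower and 0 higher, of which 14 were held, with a median of -0.39. CDK1, the kinase that drives mitosis, had 3057, 2320 and 3051 in the CYT387 line, against 6300, 6388 and 4961 in the SAR302503 line (log2 -1.05 ± 0.12, limma adjusted p = 3.12e-07). CCNA2, a cyclin of S and G2 phase, had 2684, 2147 and 2576 in the CYT387 line, against 4932, 5740 and 4343 in the SAR302503 line. KIF11, a spindle motor, had 1667, 1809 and 1522 in the CYT387 line, against 3163, 3877 and 2219 in the SAR302503 line. The lines did not overlap for any of these 3 genes, and naive cells had 2610 to 3064 of CCNA2, close to the CYT387 line.

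The S phase genes showed the same order. E2F2, a transcription factor of the G1 to S transition, had 1166, 827 and 1027 in the CYT387 line, against 2429, 2367 and 2844 in the SAR302503 line and 802 to 865 in naive cells. RRM1, a subunit of ribonucleotide reductase, had 4523, 3502 and 4209 in the CYT387 line, against 7579, 8033 and 5150 in the SAR302503 line. PCNA, the sliding clamp of replication, had 3296, 2592 and 3229 in the CYT387 line, against 4805, 5403 and 5597 in the SAR302503 line. Against naive cells, the S phase list had a median log2 difference of 0.20 in the CYT387 line and 0.48 in the SAR302503 line, and the G2 and M list 0.22 and 0.89. These 2 comparisons share the naive libraries. The inhibitor CDKN1C was higher in the CYT387 line (55.7, 82.9 and 70.1 against 17.3, 6.35 and 36.1 in the SAR302503 line), while CDKN2D (1388, 1187 and 1458 against 2636, 2628 and 3869 in the SAR302503 line) and the kinase CDK6 (log2 -0.57 ± 0.10) were lower. CDK6 lost its call with SAR302503 library 3 kept (limma adjusted p = 0.0622). Of 15 genes of the MYC network, 2 were called higher and 2 lower, of which 2 and 1 were held. MYCN had 449, 153 and 345 in the CYT387 line, against 10.4, 35.6 and 28.2 in the SAR302503 line (log2 4.27 ± 0.35, limma adjusted p = 1.80e-09), with 179 to 343 in naive cells. Of 30 genes of ribosome biogenesis, 7 were called higher and 9 lower, of which 2 and 4 were held.

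The erythroid genes that were held were all lower in the CYT387 line, while the calls with 22 libraries went both ways. HBE1, the epsilon chain of embryonic haemoglobin, had 1151, 194 and 1310 in the CYT387 line, against 14532, 9722 and 15432 in the SAR302503 line and 584 to 880 in naive cells. Its log2 difference was -3.27 ± 0.20 (limma adjusted p = 9.53e-12). AHSP, the chaperone of alpha globin, had 16.6, 7.90 and 9.56 in the CYT387 line, against 115, 200 and 129 in the SAR302503 line. HBZ, the embryonic zeta chain, and HBB, the adult beta chain, were lower too, at levels under 130 in all libraries of both lines. The fetal chain HBG2, with the most reads of all globins (reads of HBG1 and HBG2 can be shared), had 166881, 41607 and 153245 in the CYT387 line, against 210672, 189162 and 296751 in the SAR302503 line and was not called with 22 libraries (95% interval of the log2 difference -0.61 to -0.03, limma adjusted p = 0.0749). It was called lower with either left-out library kept, with both, and with 22 libraries in robust limma, edgeR and DESeq2 (adjusted p = 0.0365, 0.027 and 0.0416). In all, 4 of 11 globin genes were lower and held, and 1 was called higher and not held, with a median log2 difference of -0.32. Without CYT387 library 3, HBB and HBZ lost their calls (limma adjusted p = 0.116 and 0.0614). Without SAR302503 library 2, the other erythroid genes called lower numbered 7. Of 27 other erythroid genes, 11 were lower and held, and the median log2 difference of the 27 was -0.02. With 22 libraries 9 others were called higher, and none of these was held. HEMGN, an erythroid nuclear factor, had 117, 0 and 134 in the CYT387 line, against 792, 820 and 416 in the SAR302503 line. TFRC, the transferrin receptor, had 16758, 15644 and 15732 in the CYT387 line, against 30353, 33540 and 23734 in the SAR302503 line. RHD and ALAS2 were among the 9. ALAS2 lost its call with CYT387 library 2 kept (limma adjusted p = 0.157), and RHD only with both left-out libraries (0.0556), with 2370, 1026 and 2279 for RHD in the CYT387 line, against 1186, 1117 and 1376 in the SAR302503 line.

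Of 27 megakaryocyte and platelet genes tested, 18 were called higher and 2 lower in the CYT387 line, of which 12 and 2 were held, with a median log2 difference of 0.89 (0.81 with genes at 0 reads in the SAR302503 line set to their bound). PPBP, a chemokine stored in platelet granules, had 1481, 544 and 1361 in the CYT387 line, against 0, 0 and 0.881 in the SAR302503 line, at least 782-fold higher. VWF, which tethers platelets to the vessel wall, had 2886, 19480 and 2318 in the CYT387 line, against 0, 3.81 and 12.3 in the SAR302503 line and 343 to 369 in naive cells. The ratio over the 4 libraries was 1427, with an exact 95% counting interval of 488 to 6924. Vessel cells also express VWF, and CYT387 library 2 is the highest. The stroma and vessel markers together made up 0.124% and 0.128% of reads in CYT387 libraries 1 and 3, against 0.0347% and 0.0319% in SAR302503 libraries 1 and 2 and 0.0562% to 0.0661% in naive libraries. In CYT387 library 1 this sum was 36082 normalised counts, of which VIM held 30550 and SPARC 4472. The vessel marker CDH5 had 59.2, 2859 and 55.3 in the CYT387 line, against 48.4, 44.5 and 36.1 in the SAR302503 line. The part of vessel cells in the VWF values was not tested. THBS1, an adhesive protein of platelet granules, had 21126, 11125 and 19890 in the CYT387 line, against 336, 651 and 624 in the SAR302503 line (log2 5.45 ± 0.17, limma adjusted p = 4.74e-17). SELP, the platelet adhesion receptor P-selectin, had 1291, 911 and 1131 in the CYT387 line, against 210, 169 and 167 in the SAR302503 line and 1801 to 1911 in naive cells. TREML1, found on platelet granule membranes, had 69.9, 22.4 and 107 in the CYT387 line and no read in any library of the SAR302503 line or of naive cells.

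Some platelet genes did not follow. GP9, a subunit of the von Willebrand factor receptor, had 435, 308 and 616 in the CYT387 line, against 1303, 934 and 1780 in the SAR302503 line, and CD36, a thrombospondin receptor, had 2489, 1618 and 2541 against 6567, 7158 and 4085 in the SAR302503 line. The lineage factor GATA1 was not called, and ITGA2B and FLI1 were called higher with 22 libraries (log2 0.81 and 0.70) but not with 24. Of 13 mast cell and basophil genes tested, 8 were called higher and 1 lower, of which 6 and 0 were held. CPA3, a mast cell protease, had 362, 215 and 322 in the CYT387 line, against 87.5, 66.1 and 53.7 in the SAR302503 line and 2374 to 3269 in naive cells. The tryptase gene TPSAB1, whose reads can be shared with TPSB2, had 73.4, 97.4 and 109 in the CYT387 line, against 2.30, 3.81 and 8.81 in the SAR302503 line and 391 to 478 in naive cells. FCER1A, the IgE-binding chain, had 2677, 1035 and 2593 in the CYT387 line, against 986, 872 and 1155 in the SAR302503 line.

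Stem and progenitor genes split, with 6 called higher and 7 lower of 22, of which 6 and 5 were held. The number called lower was 2 without SAR302503 library 2 and 4 without CYT387 library 3. HMGA2, a chromatin protein of fetal stem cells, had 2402, 2331 and 2435 in the CYT387 line, against 69.1, 66.1 and 176 in the SAR302503 line and 209 to 224 in naive cells (log2 5.14 ± 0.21, limma adjusted p = 6.70e-15). The 3 CYT387 libraries differed by little, library 2 included. GFI1, a repressor of myeloid progenitors, had 1839, 949 and 1989 in the CYT387 line, against 533, 499 and 513 in the SAR302503 line. PAX5, the B cell factor, had 707, 236 and 631 in the CYT387 line, against 71.4, 96.6 and 74.9 in the SAR302503 line, while CD79A, a subunit of the B cell receptor, went the other way (375, 172 and 320 in the CYT387 line, against 793, 831 and 1062 in the SAR302503 line). Of 14 lymphoid genes, 3 were called higher and 3 lower, of which 1 and 3 were held.

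The 15 held genes with the largest gains, at a mean of at least 50 and not over 8 times higher in a left-out library, were CABP7, PPBP, ELAVL4, VWF, KCNA2, FAM155A, UNC13A, UNC80, CNTNAP5, CSMD2, FIGN, TMEM132E, HLA-DRB5, NFASC and JAKMIP2. ELAVL4, an RNA-binding protein of neurons, had 1446, 251 and 1333 in the CYT387 line and no read in the SAR302503 line, at least 765-fold higher, with 15.2 to 30.6 in naive cells. CABP7, a calcium-binding protein, had 1990, 445 and 2037 in the CYT387 line, against 0, 0 and 8.81 in the SAR302503 line, at least 1112-fold higher. KCNA2, a voltage-gated potassium channel, had 665, 278 and 605 in the CYT387 line and no read in the SAR302503 line or in naive cells. UNC13A, which primes synaptic vesicles, had 3542, 1081 and 3136 in the CYT387 line, against 5.76, 7.62 and 12.3 in the SAR302503 line (log2 8.77 ± 0.52, limma adjusted p = 5.18e-12). ELAVL4, CABP7, KCNA2 and UNC13A each had their lowest CYT387 value in library 2, the library with less SET2 RNA. VWF, HLA-DRB5 and FIGN had their highest CYT387 value there.

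CNTNAP5, a contactin-associated protein, had 403, 366 and 407 in the CYT387 line and no read in the SAR302503 line. NFASC, an adhesion protein of axons, had 883, 558 and 900 in the CYT387 line, against 2.30, 2.54 and 9.69 in the SAR302503 line. UNC80 and FAM155A both belong to the sodium leak channel NALCN. UNC80 had 598, 157 and 592 in the CYT387 line, against 1.15, 0 and 0 in the SAR302503 line, and FAM155A 629, 240 and 566 against 0, 0 and 1.76 in the SAR302503 line. The persistent lines kept in the inhibitors BMS911543 and INC424 (ruxolitinib) averaged 1.22 and 0 normalised counts for UNC80 and 0 and 0 for ELAVL4. For CABP7 they averaged 919 and 1153, and for PPBP 395 and 466.

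The 15 with the largest losses were UCA1, NXF4, TAC4, AHSP, EVI2A, HBE1, CD3D, MAGEC2, TLE4, FST, CAPRIN2, HEMGN, DES, EYA1 and FAM83A. UCA1, a long noncoding RNA, had 32, 220 and 23.4 in the CYT387 line, against 365, 633 and 444 in the SAR302503 line and 236 to 290 in naive cells (log2 -4.09 ± 0.30, limma adjusted p = 2.24e-10). CAPRIN2, an RNA-binding protein, had 3095, 1577 and 2753 in the CYT387 line, against 20081, 22266 and 14136 in the SAR302503 line. TLE4, a corepressor, had 131, 494 and 111 in the CYT387 line, against 923, 1109 and 1008 in the SAR302503 line and 120 to 173 in naive cells. DES, the intermediate filament protein desmin, had 238, 64.5 and 233 in the CYT387 line, against 1588, 1356 and 1716 in the SAR302503 line. FAM83A had 188, 42.1 and 155 in the CYT387 line, against 934, 967 and 1010 in the SAR302503 line. In these SAR302503 libraries the summed squamous markers were 2897, 7036 and 36672. The squamous markers themselves were called lower in the CYT387 line in 6 of 18 cases with 22 libraries, in 1 without SAR302503 library 2 and in 2 without CYT387 library 3, and 0 were held. EYA1 lost its call without SAR302503 library 2 (limma adjusted p = 0.0859).

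The largest difference among the insulin-like growth factor binding proteins was that of IGFBP5. IGFBP5, a binding protein of insulin-like growth factors, had 20427, 20409 and 19365 in the CYT387 line, against 73.7, 114 and 106 in the SAR302503 line and 33.4 to 52.7 in naive cells. Its log2 difference of 7.74 ± 0.18 had the same adjusted p as that of HLA-DRB1 (limma, 1.97e-19), and all 3 CYT387 libraries lay within 19365 to 20427. IGFBP4 had 19099, 21722 and 18127 in the CYT387 line, against 3420, 3428 and 4243 in the SAR302503 line. IGFBP7 was higher as well, so that 3 of 9 genes of this group were held (4 were called higher and 0 lower), while the median log2 difference of the 9 was -0.01. The call of IGFBP7 was lost without CYT387 library 1 (limma adjusted p = 0.0943) or SAR302503 library 2 (0.0706). Of 16 stroma and vessel genes 9 were higher and held, and of 15 collagen and matrix genes 8. In these lists, 13 and 10 members were over 8 times higher in a left-out library. Without CYT387 library 3, 5 of each list were called higher. VIM, the filament protein vimentin that blood cells also make, had 30550, 45700 and 31186 in the CYT387 line, against 7457, 6603 and 7919 in the SAR302503 line, and SPARC, a matrix protein of platelet granules, 4472, 23263 and 4294 against 2072, 2084 and 1758 in the SAR302503 line. COL18A1, a basement membrane collagen, had 10269, 12506 and 11053 in the CYT387 line, against 6741, 5394 and 9779 in the SAR302503 line. COL24A1, a fibrillar collagen, had 236, 122 and 177 in the CYT387 line, against 12.7, 8.89 and 2.64 in the SAR302503 line. Other held genes were low in CYT387 libraries 1 and 3 and high in library 2, such as COL3A1 (14.2, 5544 and 15.9 in the CYT387 line, against 0, 0 and 0.881 in the SAR302503 line). Of the 19 stroma and vessel markers in the table, DCN and POSTN were at 0 in the 4 libraries compared, and DCN had only 23.7 in CYT387 library 2. FN1 had 141, 17180 and 140 in the CYT387 line, against 8.06, 43.2 and 46.7 in the SAR302503 line. FN1 lost its call without CYT387 library 1 or 3 or SAR302503 library 1 (limma adjusted p = 0.126, 0.133 and 0.334). The part of such cells in these values was not tested.

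Membrane transporters and adhesion genes changed in number. Of 15 ABC transporters, 8 were higher and 1 lower, all held. ABCG1, a cholesterol exporter, had 335, 774 and 245 in the CYT387 line, against 6.91, 12.7 and 29.1 in the SAR302503 line. ABCA3, a lipid transporter of lysosome-related organelles, had 799, 800 and 770 in the CYT387 line, against 88.6, 40.7 and 99.5 in the SAR302503 line. ABCC3, an exporter of conjugates, had 2543, 6484 and 2323 in the CYT387 line, against 432, 375 and 631 in the SAR302503 line. The drug exporters differed among themselves. ABCB1 was lower (1395, 405 and 1445 in the CYT387 line, against 2834, 2703 and 1988 in the SAR302503 line) and ABCG2 higher (69.9, 77.7 and 85.0 in the CYT387 line, against 32.2, 34.3 and 15.9 in the SAR302503 line). ABCG2 lost its call without CYT387 library 3 (limma adjusted p = 0.081). Of 22 integrin and adhesion genes, 10 were called higher and 8 lower, of which 10 and 4 were held. ITGAL, the alpha chain of the leukocyte integrin LFA-1, had 4814, 2464 and 4406 in the CYT387 line, against 395, 304 and 387 in the SAR302503 line (log2 3.73 ± 0.14, limma adjusted p = 9.47e-16).

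Metabolic and stress lists were mixed. Among the 26 genes of cholesterol synthesis and uptake, 13 were called higher and 1 lower with 22 libraries, and 5 higher and 1 lower were held. Without CYT387 library 1, or without SAR302503 library 2, 8 of them were called higher. ME1, a source of NADPH and an NRF2 target, had 810, 1323 and 789 in the CYT387 line, against 100, 105 and 238 in the SAR302503 line. VEGFA, the vessel growth factor, had 27994, 38312 and 27426 in the CYT387 line, against 12457, 10884 and 12545 in the SAR302503 line, and ALDOC, a glycolytic aldolase, 5904, 4851 and 5409 against 1786, 1768 and 2297 in the SAR302503 line. Of 29 glycolysis and hypoxia genes, 10 were called higher and 5 lower, of which 5 and 4 were held. DDIT4, an inhibitor of mTORC1 from the ATF4 list, had 12344, 14380 and 13578 in the CYT387 line, against 4909, 4172 and 6682 in the SAR302503 line, and 12 of 25 members of that list were called higher and 2 lower, of which 6 and 1 were held. Of 18 heat shock genes, 4 were called higher and 8 lower, of which 2 and 5 were held, with the mitochondrial chaperone HSPD1 lower (8136, 6370 and 7633 in the CYT387 line, against 15335, 13536 and 11241 in the SAR302503 line). Of 18 endoplasmic reticulum chaperones, 1 was called higher and 5 lower, and 0 were held. Of 18 p53 targets, 6 were called higher and 4 lower, of which 5 and 2 were held. Of 18 FOXO genes, 6 and 4 were called and 4 and 3 held. Of 18 NRF2 targets, 5 and 4 were called and 3 and 0 held. Of 16 genes of the BCL2 family, 4 and 0 were called and 3 and 0 held. Of 18 granulocyte and monocyte genes, 5 and 1 were called and 3 and 1 held, and of 12 cell cycle inhibitors and D cyclins 3 and 3 were called and 2 and 2 held. Among the p53 targets SESN1, a sensor of amino acids, was lower (619, 548 and 666 in the CYT387 line, against 1759, 1959 and 1369 in the SAR302503 line). MCL1, a survival factor, was higher by 0.39 ± 0.09 on the log2 scale, and BCL2 had 97.1, 606 and 94.6 in the CYT387 line, against 32.2, 53.4 and 91.6 in the SAR302503 line. BCL2 lost its call without CYT387 library 1 or 3 or SAR302503 library 1 (limma adjusted p = 0.106, 0.101 and 0.221).

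**Figure D5:**
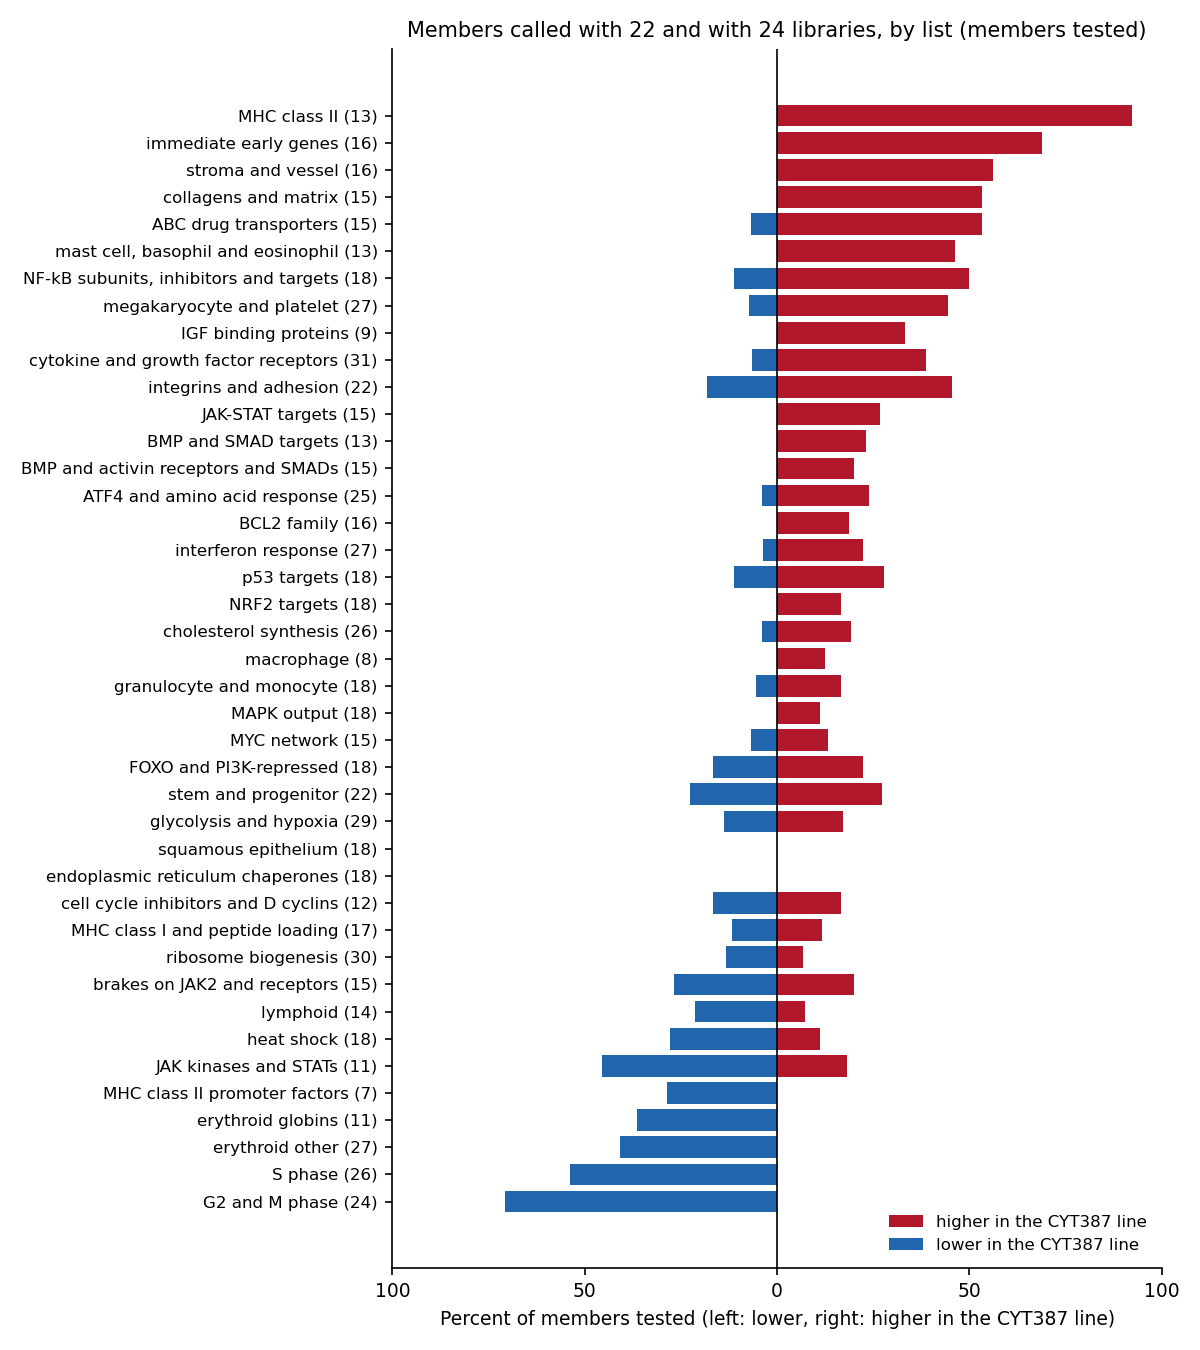
For each list, bars to the right give the percent of its tested members that were higher and held, and bars to the left those lower and held, with the number tested in brackets. MHC class II (12 of 13 higher) is at one end, and G2 and M phase (17 of 24 lower) at the other. Over all genes the shares were 11.2% higher and 10.4% lower.

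Both lines were also compared with naive cells. These comparisons share the naive libraries and use the 22 libraries. Among the 2292 genes higher in the CYT387 line and held, 892 were below naive cells in the SAR302503 line and not called in the CYT387 line, and 595 were above naive cells in the CYT387 line and not called in the SAR302503 line. Among the 2133 lower ones, 993 were above naive cells in the SAR302503 line and not called in the CYT387 line. Another 501 were below naive cells in the CYT387 line and not called in the SAR302503 line. A gene that was not called may still have moved. The next counts are of called genes, held or not. The lines lay on opposite sides of naive cells, each called, for 310 genes above naive in the CYT387 line and below naive in the SAR302503 line (1.51% of genes tested), and for 287 genes the other way (1.4%). CIITA, HLA-DRA, HLA-DRB1, CD74 and VWF were of the first kind. IGFBP5 and E2F2 were above naive cells in both lines. KIT, IL2RA and CPA3 were below naive cells in both lines. The second control, naive cells given DMSO for 4 h, averaged 15422 for KIT, 218 for IL2RA and 832 for CPA3. For IL2RA the CYT387 line (mean 240 in libraries 1 and 3) was not below that control. With all 24 libraries the counts of genes on opposite sides of naive cells were 168 and 48. Without CYT387 library 1 they were 202 and 160, and the second was 126 without CYT387 library 3 and 138 without SAR302503 library 2.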

How the data were processed

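RNA-seq of SET2 cells was deposited by the authors as a table of normalised signal, gene read counts divided by a size factor per library. Per the submitters' processing notes, the tools were DESeq 1.10.1, the aligner BWA at version 0.7.5.1 and, for counting, HTSeq at version 0.5.3p3. The builds named are hg19 and GRCh37. Their settings are not given in the sources used here. The values came out as whole reads within 0.01 after division by each library's step, which gave the depths.

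Genes with at least 10 normalised counts in at least 2 of the 22 libraries fitted were tested (20528 of 25082). limma 3.58.1 in R 4.3.3 (empirical Bayes with trend, two-sided, Benjamini-Hochberg adjustment over all genes tested, threshold 0.05) was run on log2(value + 1) over 8 groups, with 14 residual degrees of freedom. A fold on this scale understates the change of low genes. The fit was tested on simulated data. edgeR 4.0.16 and DESeq2 1.42.0 on the recovered reads were alternatives. A fold against 0 reads is a bound against 3 reads over SAR302503 libraries 1 and 2. Against 1 to 3 reads the ratio has an exact 95% interval, and both cover counting error only.

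Named genes were the 15 largest held differences each way with a mean of at least 50, up to 6 members of each list, and a few fixed genes (the JAK kinases, STAT3, STAT5A, STAT5B, CIITA, KIT, MYC, ACVR1 and ID1). CSF2RB, IL4R, EPOR, GP9, CD36, HLA-DOA, HLA-DMA, HLA-DOB, HLA-DQB1, CD74, HBG2, ALAS2, RHD, JUNB, ABCB1, FLI1, ITGA2B, COL18A1 and GATA1 were added after their values were seen. The members and lists were chosen with earlier results of these data known. SAR302503 libraries 1 and 3 were sequenced again by the submitters, and no CYT387 library was, per the labels. Whether reads were counted by strand is not given in the sources used here. Some members of the lists are counted but not reported here by name.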

Additional observations from a re-analysis of the deposited data

Results flagged for a closer look

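Squamous epithelium markers made up 0.635% of the reads of CYT387 library 2 and 0.123% of those of SAR302503 library 3, above the naive libraries. CYT387 library 2 was also above naive libraries in stroma and vessel markers (0.947% of reads) and in macrophage markers (0.069%). Neither library enters the fit of 22 libraries.

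The 2 lines differed in their direction from naive cells for 310 genes that were above naive in the CYT387 line and below naive in the SAR302503 line, and for 287 genes the other way. The difference between the lines was itself called for each of these genes by limma at an adjusted p under 0.05.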

How the results depend on the processing

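The counts of genes higher and lower in the CYT387 line were 3913 and 3632, and lay between 2628 and 4150 and between 2368 and 3959 over all alternatives run. Leaving out each library in turn gave 2628 to 3639 higher and 2368 to 3419 lower genes, and the lowest count of lower genes was without SAR302503 library 2. Where this left 1 library in a line, that library was assumed to vary like those of the other groups. The 310 genes above naive in the CYT387 line and below naive in the SAR302503 line became 202 to 294 in this way, and the 287 genes of the opposite kind 126 to 320. With all 24 libraries they were 168 and 48, with CYT387 library 2 kept 206 and 151, and with SAR302503 library 3 kept 75 for the second kind. The cause of these shifts was not tested. A fit with the replicate number as a block called 3447 higher and 3217 lower genes. Libraries of the same number had correlations of 0.243, -0.088 and -0.282 in their deviations from the group means. Libraries of different numbers had -0.295 to 0.325. These values use all 24 libraries, with the foreign RNA of the 2 left-out ones, so they cannot decide whether the numbers pair the libraries. Reads recovered from the values gave 3419 and 3959 genes in edgeR and 3794 and 3716 in DESeq2. TMM scaling gave 3670 and 3903. None of the 147 named genes followed through the alternatives reversed in any of them. Of these, 139 were called in the main fit, and most were named because they were held. A reversal was therefore unlikely from the start. With SAR302503 library 3 kept, 10 of them lost their call and 1 gained one. With CYT387 library 2 kept, 7 lost it and 1 gained one. Depth limits genes near the count minimum of 10.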
